A study of Mus musculus with 12 samples.

Results

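The mitochondrial respiratory chain was examined through 47 genes of the nuclear genome that encode subunits of its complexes I to IV. The measurements came from kidney proximal tubules of mice in 4 groups, with 3 arrays in each. A member was represented by the probe set that carries its symbol alone in the array annotation and has the highest mean over the 12 arrays, and it was kept if that probe set lay above 4 (log2) on at least 3 arrays. A probe set of this kind was found for 45 members, and 44 passed, against 9751 of 18193 genes on the whole array. They were 26 of 28 listed members of complex I, 4 of 4 of complex II, 5 of 5 of complex III and 9 of 10 of complex IV, with Ndufa4 counted in complex IV. Of the remaining members, Ndufb4 had a single probe set of this kind, which read 2.48 to 2.76, Ndufs6 appeared only on probe sets that carry several symbols, and Cox7b had no probe set under its symbol.

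The groups were wild-type mice, mice with a catalase transgene (catalase-Tg), dB/dB mice, an obese and diabetic strain that carries a defective leptin receptor, and dB/dB mice with the transgene (dB/dB catalase-Tg). All were 20 weeks old and ate a normal diet, and their tubules were separated on Percoll gradients before total RNA was taken. The labels give neither the sex of the mice nor the promoter or species of the transgene. They do not say that the 3 samples of a group came from separate animals. Outside wild type, whose arrays differed in sex-linked transcripts, the spread on which the p-values rest may be technical.

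Complex I takes electrons from NADH and complex II takes them from succinate, a step shared with the tricarboxylic acid cycle. Complex III passes them from ubiquinol to cytochrome c, and complex IV hands them to oxygen. The protons pumped on the way drive ATP synthase, on which proximal tubule cells depend heavily because reabsorption is costly and these cells make little ATP by glycolysis. Electrons that leave the chain early form superoxide and then hydrogen peroxide, the substrate of catalase.

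Genes of the respiratory chain are known targets of the nuclear respiratory factors NRF1 and GABPA, and the promoters of the members were searched for their motifs. RefSeq promoter windows of build GRCm38.p6, which run from 250 bases before to 50 bases after a transcript start, were matched by symbol for 38 of 47 members. Ndufa2, Ndufb9, Ndufs1, Sdhc, Uqcrc2, Uqcrb, Uqcrq, Cox4i1 and Cox6c were not matched. Both strands were read. The NRF1 core CGCNTGCG, with N standing for any base, was found in 12 of 38 members (31.6%) and in 9.22% of 27025 genes. Its stricter form CGCATGCG, a subset of those matches, was found in 3 members (7.89%) and in 2.07% of genes. The GABPA core CCGGAAG was found in 9 members (23.7%) against 9.93% of genes, and the YY1 motif AANATGGC in 11 members (28.9%) against 6.96%. The Sp1 box GGGCGG was about as frequent in members (44.7%) as in all genes (38.2%), and the ERRA motif TCAAGGTCA was found in 1 member (2.63%) against 0.466% of genes. In the 250 bases before the start alone, the open NRF1 core was found in 26.3% of members against 7.65% of genes. The shares there were 15.8% against 7.83% for the GABPA core and 10.5% against 4.49% for the YY1 motif. A match describes these letters and does not show that a factor binds there.

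The 250 bases before the start are given below for 4 members, chosen after the search: Cox6a1 and Ndufa8 hold the strict NRF1 core, Sdhd holds an NRF1 core and a GABPA core, and Cox5b holds neither. Each is written 5′ to 3′ on the strand of the gene, in build GRCm38.p6, with capitals for matches to CGCNTGCG or CCGGAAG on either strand.
Cox6a1, complex IV, chr5:115348959-115349208, minus strand: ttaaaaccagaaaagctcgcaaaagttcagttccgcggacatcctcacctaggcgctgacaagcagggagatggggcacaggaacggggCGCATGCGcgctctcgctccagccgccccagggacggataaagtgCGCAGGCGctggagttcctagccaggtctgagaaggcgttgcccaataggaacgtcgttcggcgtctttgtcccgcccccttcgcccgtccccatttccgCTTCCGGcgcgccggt
Ndufa8, complex I, chr2:36049339-36049588, minus strand: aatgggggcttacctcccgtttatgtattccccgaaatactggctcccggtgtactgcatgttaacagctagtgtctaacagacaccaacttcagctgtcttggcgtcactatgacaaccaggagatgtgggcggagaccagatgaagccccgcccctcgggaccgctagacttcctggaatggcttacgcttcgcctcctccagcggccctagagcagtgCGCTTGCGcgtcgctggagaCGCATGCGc
Sdhd, complex II, chr9:50603850-50604099, minus strand: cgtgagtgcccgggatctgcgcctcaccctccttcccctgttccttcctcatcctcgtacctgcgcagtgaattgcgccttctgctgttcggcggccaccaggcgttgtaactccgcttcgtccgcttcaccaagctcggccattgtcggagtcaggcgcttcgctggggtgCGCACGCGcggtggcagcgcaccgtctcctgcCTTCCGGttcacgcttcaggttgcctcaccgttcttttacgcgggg
Cox5b, complex IV, chr1:36691237-36691486, plus strand: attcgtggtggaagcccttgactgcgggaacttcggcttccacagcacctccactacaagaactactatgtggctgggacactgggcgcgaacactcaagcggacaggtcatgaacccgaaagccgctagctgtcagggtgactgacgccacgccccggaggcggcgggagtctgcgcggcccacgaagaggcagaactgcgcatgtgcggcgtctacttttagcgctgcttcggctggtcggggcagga

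Some libraries stood apart from their group. Over all probe sets tested, wild type 1 and dB/dB catalase-Tg 1 correlated more closely with the dB/dB arrays (0.965 and 0.962 on average) than with the other arrays of their own group (0.865 and 0.894). The weights that limma estimates for arrays were 0.172 for dB/dB catalase-Tg 1, 0.227 for wild type 1 and 0.287 for catalase-Tg 1, called the 3 low-weight arrays here, and 0.629 to 3.03 for the others. Female cells transcribe Xist, which read 11.91 on array 2 and 6.72 on array 3 of wild type, and 2.31 to 2.67 on the other 10 arrays. Eif2s3y, a gene of the Y chromosome, lay at the floor of 2.30 on wild type 2 and read 7.88 to 8.93 elsewhere. The wild-type arrays were thus not repeats of the same sample, and wild type 3 carried both transcripts. Among proximal tubule markers, Slc34a1, the phosphate carrier of the brush border, read 12.84 to 14.07 on the 12 arrays. Others varied widely: Slc22a6, an organic anion transporter, read 4.86 on wild type 1 and 8.38 to 11.69 elsewhere, and Slc7a13, an amino acid transporter of the late proximal tubule, 2.87 to 12.55. Umod, a product of the thick ascending limb, also read 12.49 to 14.83, and Pecam1, an endothelial marker, 3.30 to 8.29. The collecting duct water channel Aqp2 lay at the floor of 2.30 on every array, but 5 of 11 listed collecting duct markers passed the filter. Of these 5, 4 were higher in dB/dB than in wild type (median 1.39), and limma called 0. In bulk RNA of this kind, fewer cells of a type and less RNA per cell cannot be told apart. For the members as a whole and for some named members, values without some of these libraries are also given. Medians by complex and differences of the other gene lists are given with all arrays only, so their dependence on these libraries is not shown.

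Respiratory chain subunits were strongly and evenly expressed. On the log2 scale of the deposited values, 43 of 44 members lay above 10 on all 12 arrays, 9 lay above 13 and 3 above 14, and the lowest single reading was 9.69 for Ndufs4, an accessory subunit of complex I. The median SD within groups was 0.18 for the members (0.08 to 0.40) and 0.38 for all 18144 probe sets tested. For the 1648 probe sets with a mean above 10 it was 0.28. Cox7a2, a small subunit of complex IV, varied least, with an SD of 0.08, and Sdhc, which anchors complex II in the membrane, varied most, with 0.40.

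No member passed the threshold in any comparison. By limma over 18144 probe sets with Benjamini-Hochberg adjustment at 0.05, 0 of 44 members were called in dB/dB against wild type, where 0% of all probe sets were called. In catalase-Tg against wild type 0 members were called against 0.022% of probe sets, and in dB/dB catalase-Tg against dB/dB 0 members against 0.00551%. In dB/dB catalase-Tg against catalase-Tg the share of all probe sets was 0.0276%, in the interaction of dB/dB and transgene 0.00551%, and in the average dB/dB and transgene effects 0.0165% and 0.0276%, again with 0 members. At an unadjusted p under 0.05 limma also found 0 of 44 members in each of the 7 comparisons. The shares of all probe sets there were 4.16%, 9.15%, 7.5%, 6.86%, 1.64%, 12.2% and 18.1%, in the order just given.

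The intervals show how precisely the differences were measured, given the spread within groups. The 95% confidence interval lay within 1 log2 unit on either side of 0, a change of less than 2-fold, for 42 of 44 members in dB/dB against wild type. This held for 43 in catalase-Tg against wild type, 43 in dB/dB catalase-Tg against dB/dB, and all 44 between the transgenic groups. Among all 18144 probe sets the corresponding numbers were 9660, 9641, 9600 and 9748. The members whose intervals reached past 1 were Ndufs1 and Sdhc in the first comparison and Sdhc in the next pair. In the interaction the interval stayed within 1 for 39 members, and it reached further for Ndufs1, Ndufv3, Sdhc, Sdhd and Uqcrc1. The number of arrays limits this precision. If the spread within groups is technical, as it may be, the intervals do not bound a difference between genotypes.

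**Figure D1:**
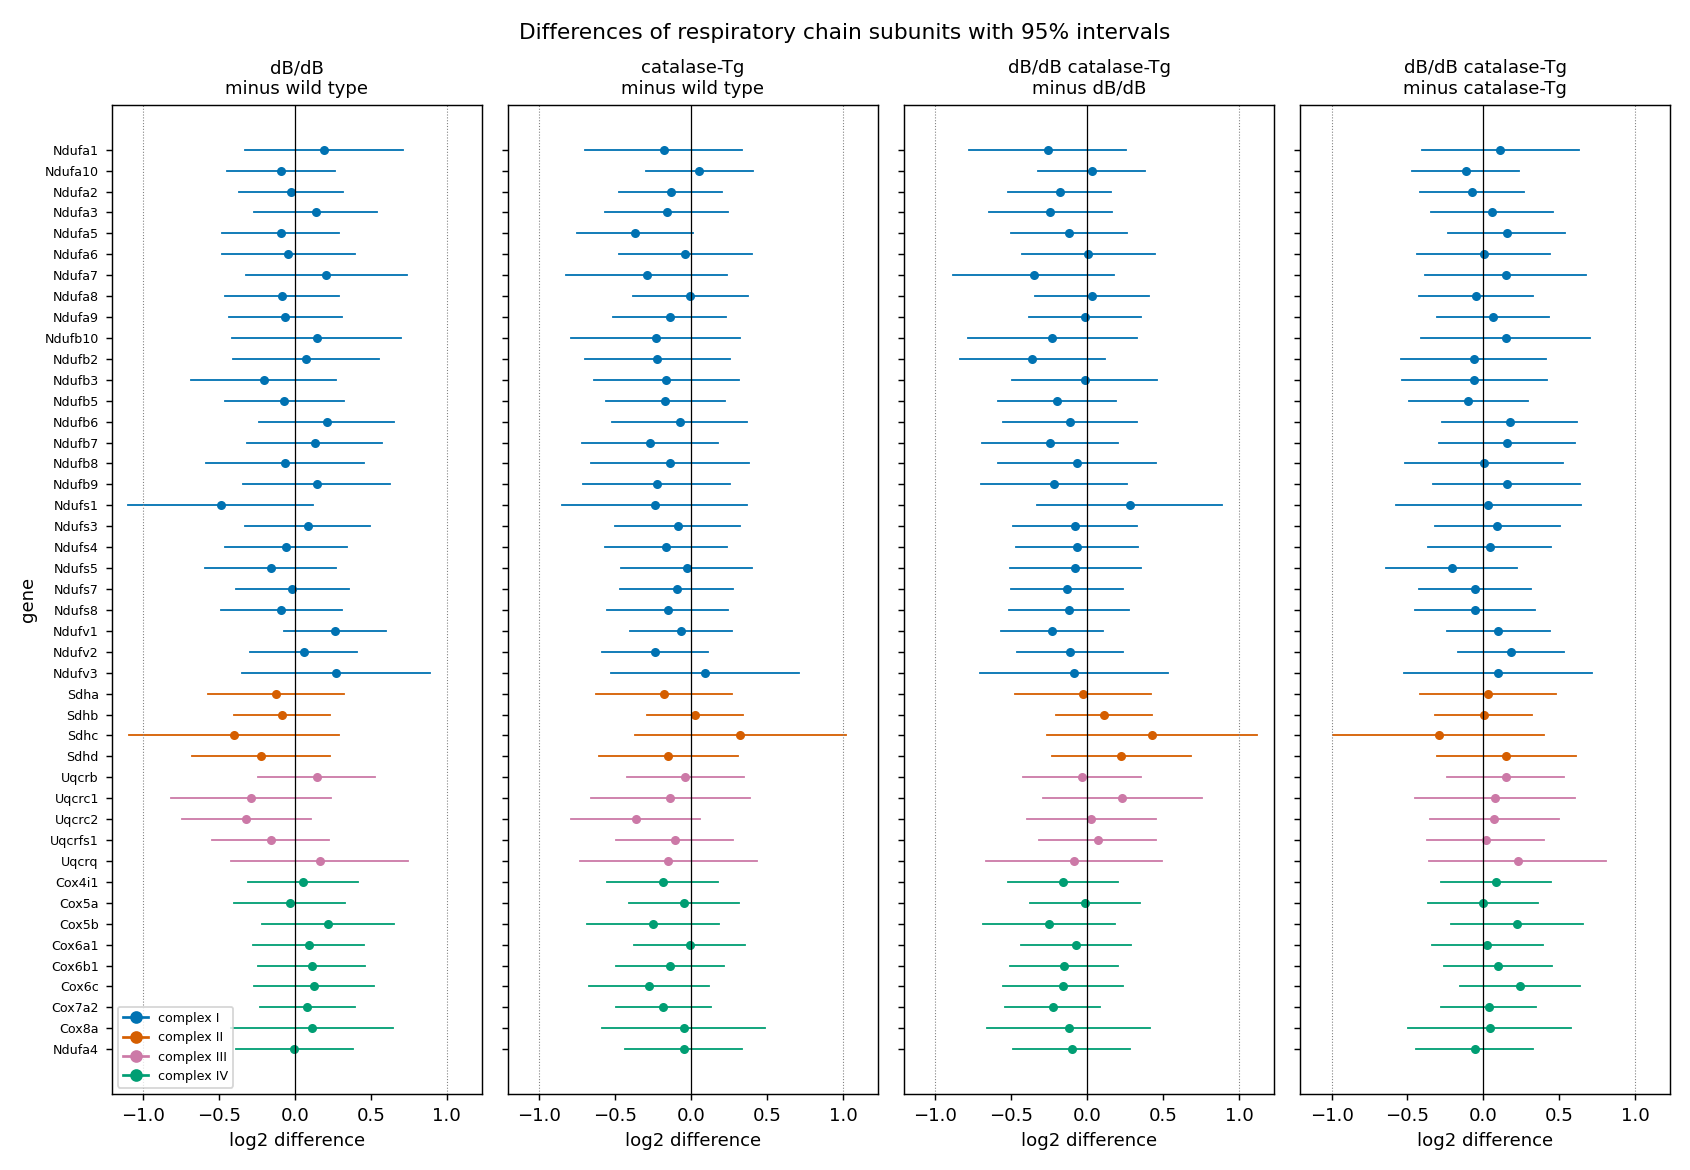
Fitted log2 difference of each of the 44 kept genes (point) with its 95% confidence interval from limma (line) in the 4 pairwise comparisons, coloured by complex, with 3 arrays per group. All intervals cross 0, and those of Ndufs1 and Sdhc are among the widest.

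The diabetic genotype alone left the members centred near 0, with the complexes on different sides. In dB/dB against wild type the median member difference was -0.01 (log2), with 21 of 44 above 0, from -0.49 to 0.27. Over all probe sets tested the median was -0.11 and 38.0% were above 0. On the chosen probe sets the 4 genes of complex II were all lower in dB/dB (median -0.17), and complex III had a median of -0.16 with 3 of 5 lower. A second kept probe set of Sdhd, in complex II, gave 0.08. Complex IV had a median of 0.09 with 7 of 9 higher, and complex I a median of -0.02 with 12 of 26 higher. Without wild type 1 the median over the 44 members was 0.08, and without wild type 2 and wild type 3 it was -0.19, so its sign rests on which wild-type arrays are used.

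The gap between complexes IV and II can be followed array by array. A score, the mean difference of the genes of a complex from their own means over the 12 arrays, was taken for each, and the complex II score was subtracted from the complex IV score. The gap was 0.12, -0.23 and 0.02 on the wild-type arrays 1 to 3, and 0.06, -0.24 and -0.33 on the catalase-Tg arrays. On the dB/dB arrays it was 0.12, 0.48 and 0.19, and 0.20, -0.27 and -0.12 where both factors met. The gap was above 0 on all 3 dB/dB arrays and on array 1 of every group, and dB/dB 1 lay at the level of wild type 1. The dB/dB arrays overlapped the wild-type and dB/dB catalase-Tg arrays and lay above all catalase-Tg arrays. The gap was looked at after the differences by complex had been seen, and no test was made of it.

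In the transgenic mice most members lay slightly lower than in their matched controls. In catalase-Tg against wild type the median was -0.14 with 4 of 44 above 0, beside a median of -0.02 and 47.5% above 0 for all probe sets. The medians were -0.16 in complex I, -0.06 in complex II, -0.14 in complex III and -0.14 in complex IV, where all 9 genes were lower, as were all 5 of complex III. In dB/dB catalase-Tg against dB/dB the median was -0.09 with 10 of 44 above 0, beside -0.02 and 48.3% for all probe sets. Here complex I had a median of -0.12 and complex IV -0.15, with all 9 genes lower. Complex II had 0.17 with 3 of 4 higher on the chosen probe sets, and complex III 0.03. None of these genes passed on its own. Without wild type 1 the median of the first comparison was -0.05, and without dB/dB 1 that of the second was -0.04. Both were smaller in size than with all arrays. The members' score on single arrays had a within-group SD of 0.12, which is not the error of these medians.

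Diabetic and non-diabetic transgenic mice differed little in these genes. In dB/dB catalase-Tg against catalase-Tg the median was 0.05, with 32 of 44 above 0 and a range of -0.30 to 0.24, beside a median of -0.10 and 37.9% above 0 for all probe sets. All 5 genes of complex III and 7 of 9 of complex IV were higher, with medians of 0.08 and 0.04. The interaction had a median of 0.02 over the members, with 26 of 44 above 0, beside 0.01 and 51.9% for all probe sets. On the chosen probe sets all 4 genes of complex II (median 0.13) and all 5 of complex III (0.17) lay above 0. The average dB/dB effect had a median of 0.003 over the members, with 23 of 44 above 0, beside -0.10 and 36.7% for all probe sets. Once the 3 low-weight arrays were left out, the median over the members was 0.13 with 35 of 44 above 0. The share of all probe sets above 0 in that fit is not given here.

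Few members separated their groups array by array. In dB/dB against wild type, Ndufv1 lay higher on every dB/dB array than on any wild-type array, 1 of 44 where 2.52% of all probe sets did so, and Ndufs1, Sdhc and Uqcrc2 lay lower, 3 of 44 against 8.91%. In catalase-Tg against wild type Sdhc lay higher without overlap (5.74% of all probe sets) and Ndufa9, Uqcrc2 and Cox4i1 lower (7.8%). In dB/dB catalase-Tg against dB/dB no member lay higher without overlap (4.87% of all probe sets), and 5 lay lower, namely Ndufa7, Ndufb2, Ndufv1, Cox5b and Cox7a2 (11.1%). Between the transgenic groups only Ndufv2 lay higher (6.67%) and none lower (9.35%). These shares are small counts near or below those of the whole array.

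Complex I holds the most members, and Ndufs1 had the largest fitted difference from wild type in dB/dB. Ndufs1 encodes the large iron-sulphur subunit that carries electrons away from the NADH site. It read 11.27, 11.71 and 11.51 on the wild-type arrays 1 to 3 and 10.88, 11.32 and 11.57 on the catalase-Tg arrays. The dB/dB arrays gave 11.24, 10.79 and 11.01, and the dB/dB catalase-Tg arrays 10.73, 11.51 and 11.63. The 3 dB/dB arrays lay just below all wild-type arrays, and the transgenic groups were split by a low array 1. The dB/dB difference was -0.49 (SE 0.27, 95% interval -1.10 to 0.12), which limma did not call (adjusted p = 0.767, range over alternatives 0.0394 to 1). It was smaller under other settings: -0.27 without wild type 2 and wild type 3, -0.26 with a score of other cells as a covariate and -0.20 with the Gapdh control difference as a covariate. Without the 3 low-weight arrays it was -0.60 and limma called it (adjusted p = 0.0394), where 26.9% of all probe sets were called. With the transgene Ndufs1 differed from dB/dB by 0.28 (SE 0.27), and by 0.56 without those arrays, when limma called it (adjusted p = 0.0475, with 27.8% of all probe sets called).

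Among the other subunits of complex I, Ndufa5, Ndufb2 and Ndufv1 shared no order of the groups. Ndufa5, an accessory subunit of the arm that faces the matrix, read 13.02, 12.78 and 12.90 in wild type and 12.82, 12.46 and 12.32 in catalase-Tg. It read 12.87, 12.86 and 12.69 in dB/dB and 12.55, 12.70 and 12.81 in dB/dB catalase-Tg. The first pair overlapped, since catalase-Tg 1 lay above wild type 2, and the difference of -0.37 (SE 0.17) had the smallest p of any member in the 4 pairwise comparisons without passing in limma (adjusted p = 0.551). Ndufb2, an accessory subunit of the membrane arm, read 11.74, 11.47 and 11.30 in dB/dB against 11.02, 11.26 and 11.14 in dB/dB catalase-Tg, without overlap, and 11.80, 11.13 and 11.35 in wild type against 11.47, 11.11 and 11.03 in catalase-Tg. Its difference with the transgene was -0.36 (SE 0.22) in dB/dB mice and -0.22 (SE 0.22) in the others, and limma called neither (adjusted p = 0.636 and 0.762). Ndufv1, which binds NADH and the flavin that accepts its electrons, read 12.36, 12.15 and 12.31 in wild type, 12.53, 12.64 and 12.43 in dB/dB and 12.29, 12.23 and 12.40 in dB/dB catalase-Tg. All 3 dB/dB arrays lay above both other groups, by 0.26 (SE 0.15) over wild type, and limma did not call the difference (adjusted p = 0.767). The other kept Ndufv1 probe sets gave 0.11 and -0.12 in that comparison. In dB/dB catalase-Tg against dB/dB they gave -0.12 and 0.09, where the chosen one gave -0.23.

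The 6 core subunits of complex I and its 20 accessory subunits had like medians: in dB/dB against wild type 0.02 and -0.03, in catalase-Tg against wild type -0.12 and -0.16, and in dB/dB catalase-Tg against dB/dB -0.12 and -0.12. The core subunits, which belong to the catalytic part of the complex, were Ndufv1, Ndufv2, Ndufs1, Ndufs3, Ndufs7 and Ndufs8. With Ndufa4 counted in complex I, the complex IV median was 0.10 in dB/dB and -0.16 in catalase-Tg against wild type.

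Complex II is encoded wholly in the nucleus. Sdhc, 1 of its 2 membrane anchors, read 10.81, 10.89 and 10.89 in wild type and 11.27, 11.17 and 11.13 in catalase-Tg, the second group higher on every array. It read 10.81, 10.03 and 10.56 in dB/dB and 10.11, 11.27 and 11.31 in dB/dB catalase-Tg, where array 1 was low and the others stood at the catalase-Tg level. The dB/dB and catalase-Tg groups differed from wild type by -0.40 and 0.32, and dB/dB catalase-Tg differed from dB/dB by 0.43, each with an SE of 0.31, and limma called none (adjusted p = 0.767, 0.759 and 0.651). The first rested on single arrays, at -0.57 without dB/dB 1 and -0.18 without dB/dB 2. So did the last: it was 0.82 without dB/dB catalase-Tg 1, 0.24 and 0.22 without arrays 2 and 3 of that group, and 0.21 without dB/dB 2. With array weights limma called it at 0.66 (adjusted p = 0.0103, with 38.5% of all probe sets called), and without the 3 low-weight arrays at 0.82 (adjusted p = 0.0287). The second Sdhc probe set gave -0.16, 0.26 and 0.45 for the same 3 comparisons.

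The other genes of complex II had smaller differences. In dB/dB against wild type Sdha, the flavoprotein that oxidises succinate, differed by -0.12 (SE 0.20), Sdhb, its iron-sulphur partner, by -0.08 (SE 0.14) and Sdhd, the other membrane anchor, by -0.22 (SE 0.21). The same genes differed by -0.03, 0.11 and 0.22 in dB/dB catalase-Tg against dB/dB. The second kept Sdhd probe set gave 0.08 and -0.17 in these comparisons, opposite in sign to the chosen one. Among 26 members with more than 1 kept probe set, Sdha was the only one whose probe sets differed in sign by over 0.5 in a pairwise comparison. In dB/dB against wild type its others gave -0.29 and 0.29, the latter from a probe set near the filter, with a mean of 3.99. Several other members, with Sdhd, Ndufv1 and Uqcrb among them, had probe sets that differed in sign by less.

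In complex III the core proteins lay lower in dB/dB, and no member passed the threshold. Uqcrc2, a core protein, read 13.47, 13.69 and 13.63 in wild type, 13.05, 13.28 and 13.38 in catalase-Tg, 13.36, 13.12 and 13.35 in dB/dB and 12.97, 13.37 and 13.58 in dB/dB catalase-Tg. Wild type lay above catalase-Tg and above dB/dB on every array, and the doubly altered group overlapped all others. The differences from wild type were -0.36 in catalase-Tg and -0.32 in dB/dB (SE 0.19 each), and limma called neither (adjusted p = 0.582 and 0.767). Uqcrc1, the other core protein, read 10.78, 11.01 and 11.05 in wild type, 10.56, 11.02 and 10.85 in catalase-Tg, 10.90, 10.38 and 10.69 in dB/dB and 10.43, 11.20 and 11.03 in dB/dB catalase-Tg. All groups overlapped, and dB/dB catalase-Tg exceeded dB/dB by 0.23 (SE 0.24; limma adjusted p = 0.733), or by 0.46 without its array 1 and 0.07 without its array 2. Uqcrfs1, the Rieske iron-sulphur protein, differed by -0.16 in dB/dB against wild type, while the small subunits Uqcrb and Uqcrq differed by 0.14 and 0.16. The second kept Uqcrb probe set gave -0.13 in that comparison, so the sign for this gene depends on the probe set.

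Complex IV members lay close together, from -0.03 to 0.22 in dB/dB against wild type. Cox5b, a subunit that binds zinc at the matrix side, read 14.44, 14.01 and 14.13 in wild type, 14.28, 13.78 and 13.77 in catalase-Tg, 14.37, 14.51 and 14.36 in dB/dB and 14.34, 13.97 and 14.16 in dB/dB catalase-Tg. The dB/dB arrays lay above all dB/dB catalase-Tg arrays and overlapped wild type because of wild type 1. The differences were 0.22 for dB/dB against wild type and -0.25 for each transgenic group against its control (SE 0.20 each), and limma called none (adjusted p = 0.767, 0.702 and 0.663). The first was 0.34 without wild type 1 and 0.13 without wild type 2. Averaged over both genotypes the transgene difference was -0.25, and limma called it only with array weights, at -0.31 (adjusted p = 0.0439), where 26.4% of all probe sets were called. Its 4 kept probe sets had the same sign in these comparisons.

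Cox6c and Cox7a2 are small subunits of complex IV. Cox6c read 13.64, 13.37 and 13.30 in wild type and 13.46, 12.98 and 13.03 in catalase-Tg, an overlapping pair with a difference of -0.28 (SE 0.18; limma adjusted p = 0.648), or -0.43 without catalase-Tg 1 and -0.17 without wild type 1. In dB/dB it read 13.68, 13.55 and 13.44, and 13.46, 13.39 and 13.35 with both factors. Cox7a2 read 13.95, 14.08 and 13.88 in dB/dB and 13.70, 13.72 and 13.80 in dB/dB catalase-Tg, without overlap, a difference of -0.23 (SE 0.14; limma adjusted p = 0.638). In wild type it read 13.95, 13.79 and 13.92, and in catalase-Tg 13.80, 13.69 and 13.63.

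**Figure D2:**
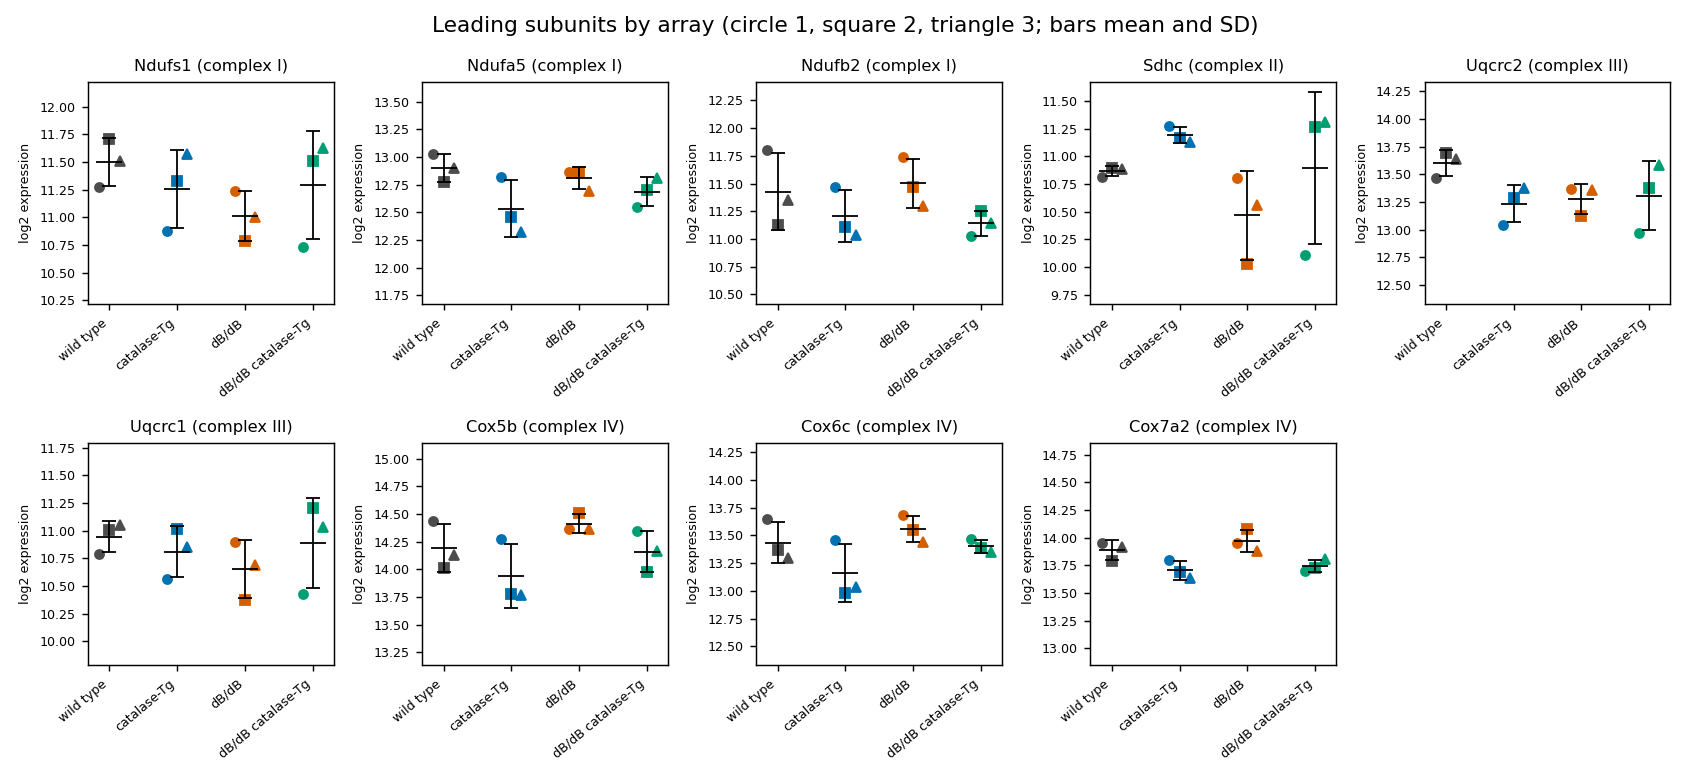
Log2 expression of 9 of the genes described by array, without Ndufv1. Each group's 3 arrays are points (circle, square and triangle for arrays 1, 2 and 3), and its mean and SD are bars. Panels have equal spans and different origins. Ndufs1, Uqcrc1 and Sdhc have low circles in dB/dB catalase-Tg, while Cox7a2 is nearly level.

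The mean score of the 44 members was 0.21, -0.06 and 0.01 on the wild-type arrays 1 to 3, 0.08, -0.15 and -0.15 on the catalase-Tg arrays, 0.20, 0.01 and -0.05 on the dB/dB arrays and -0.11, -0.03 and 0.06 on the dB/dB catalase-Tg arrays. The groups overlapped, and catalase-Tg lay below wild type at each of the 3 sample numbers. In the first 3 groups array 1 was the highest, and in the last it was the lowest. On wild type 1, 38 of 44 members were the highest of their group, where 42.7% of all probe sets were, and on catalase-Tg 1 and dB/dB 1 it was 35 of 44 each, where 35.7% and 42.5% were. On dB/dB catalase-Tg 1, 26 of 44 members were the lowest of their group, where 58.3% of all probe sets were.

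The members that broke this order included core or catalytic subunits of complexes I, II and III, and some accessory subunits. On wild type 1 the members that read lowest of their group were Ndufs1, Sdhc, Uqcrc1 and Uqcrc2, where 43.8% of all probe sets were lowest. On catalase-Tg 1 they were Ndufa9, Ndufs1, Ndufs8, Ndufv1, Sdha, Sdhb, Uqcrc1 and Uqcrc2, where 52.4% of all probe sets were lowest. On dB/dB 1 they were the accessory subunits Ndufb6 and Uqcrb, where 19.9% were. Ndufs1, Uqcrc1 and Uqcrc2 were thus lowest on both wild type 1 and catalase-Tg 1, and they were also lowest on dB/dB catalase-Tg 1. All of these genes were singled out after their values had been seen.

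**Figure D3:**
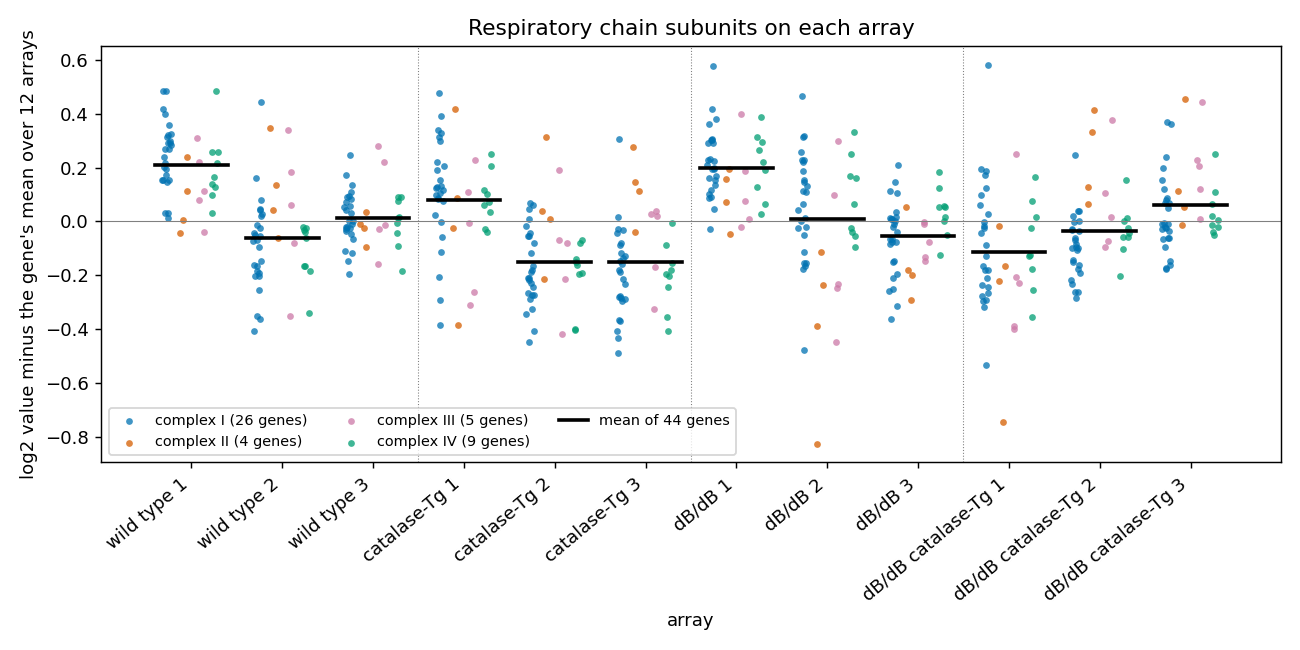
Each point is 1 of the 44 kept genes on 1 array, as its log2 value minus its own mean over the 12 arrays, coloured by complex; the black bar is the mean of the 44. The bars lie between -0.15 and 0.21, and arrays 1 of wild type and dB/dB have the highest.

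Markers of the cells in the preparation moved far more across the same arrays. The score of 21 kept of 22 proximal tubule markers was -2.07, 0.29 and 0.51 in wild type, -0.51, 0.94 and 0.92 in catalase-Tg, -0.46, -0.61 and -0.25 in dB/dB and -0.29, 0.86 and 0.66 in dB/dB catalase-Tg, a range of 3.01 against 0.36 for the members. The score of 15 of 15 endothelial markers ran from -1.47 to 1.54 in wild type, -1.85 to -0.06 in catalase-Tg, 0.83 to 1.78 in dB/dB and -1.17 to 1.59 in dB/dB catalase-Tg. That of 8 kept of 10 podocyte markers ran from -1.77 to 2.23, -1.82 to -1.43, 0.44 to 2.32 and -1.52 to 0.87 in the same order. That of 7 kept of 12 fibroblast and mural markers ran from -1.80 to 1.98, -2.07 to -0.16, 0.89 to 2.12 and -1.62 to 2.03, with Col1a1 and Lum at or near the floor throughout. The score of 13 of 13 loop of Henle and distal tubule markers ran from -1.52 to 1.5003 in wild type, -1.99 to -1.31 in catalase-Tg, 0.96 to 1.34 in dB/dB and 0.07 to 0.88 in dB/dB catalase-Tg, so both diabetic groups lay above every catalase-Tg array. That of 5 kept of 11 collecting duct markers ran from -0.84 to -0.07, -0.71 to -0.62, 0.35 to 1.25 and -0.14 to 1.33 in the same order. With the mean of the endothelial, podocyte and mural scores as a covariate, limma called 0 of 44 members in each comparison. The catalase-Tg median was then -0.08. The loop of Henle and collecting duct scores were not part of this covariate. The 3′ minus 5′ difference of the Gapdh control probe sets, a sign of RNA integrity, was 0.61 on dB/dB 2 and 0.38 on dB/dB catalase-Tg 1, the arrays with the lowest Sdhc, and -0.11 to 0.19 elsewhere. The same difference for the actin control was 2.34 and 2.03 on these arrays, within 1.85 to 2.501 over all, and for pyruvate carboxylase 6.62 and 6.04, within 4.40 to 6.85. With the Gapdh difference as a covariate, Sdhc differed from wild type by -0.07 in dB/dB and 0.17 in catalase-Tg, and dB/dB catalase-Tg differed from dB/dB by 0.14. Ndufs1 in dB/dB against wild type was then -0.20, Uqcrc2 -0.16 and Cox5b 0.08, and Uqcrc1 in dB/dB catalase-Tg against dB/dB 0.02. With that covariate limma again called 0 of 44 members in each comparison.

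The rest of the oxidative machinery was described through lists of other genes, of which none was called by limma in any comparison. Of 13 other genes of the chain, most of them subunits of complexes I, III and IV and 1 of them the electron carrier cytochrome c (Cycs), 10 were higher in dB/dB than in wild type (median 0.06) and 12 were lower in dB/dB catalase-Tg than in dB/dB (median -0.19). In the latter, Cox7c, a small subunit of complex IV, read 6.75, 6.98 and 6.80 against 6.28, 5.23 and 5.73, a difference of -1.09 (SE 0.36) on a probe set far dimmer than those of the members, and Ndufb11 differed by -0.32 (SE 0.16). For both, limma gave an adjusted p of 0.636. The 17 genes of ATP synthase, also called complex V, with its inhibitor Atpif1 among them, had medians of 0.04 in dB/dB against wild type, -0.19 in catalase-Tg against wild type and -0.11 in dB/dB catalase-Tg against dB/dB, with Atp5e at -0.47 (SE 0.24) in the last. ND5, the single mitochondrially encoded subunit with a probe set of its own, read 15.12 to 15.52 over the 12 arrays and differed by 0.17 (SE 0.16) in dB/dB against wild type.

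Genes that build or feed the chain lay mostly lower in dB/dB than in wild-type mice, as did most probe sets, without passing the threshold. Of 35 kept assembly factors, 30 were lower in dB/dB than in wild type (median -0.25). Of 17 kept genes of the tricarboxylic acid cycle and pyruvate dehydrogenase 14 were lower (median -0.16). For all probe sets the median was -0.11, with 38.0% above 0. In dB/dB catalase-Tg against dB/dB the medians were 0.14 and 0.16, with 22 of 35 and 14 of 17 higher, beside -0.02 and 48.3% for all probe sets. Uqcc2, an assembly factor of complex III, went the other way at -0.72 (SE 0.24), while Tmem126b, which assembles complex I, was at 0.59 (SE 0.29) and Pdhx, a subunit of pyruvate dehydrogenase, at 0.72 (SE 0.32), each with an adjusted p of 0.636 in limma. The 45 genes of the large mitochondrial ribosomal subunit had medians of -0.13 and 0.03 in these comparisons. At an unadjusted p under 0.05 in dB/dB catalase-Tg against dB/dB, limma found 1 of the 13 other chain genes and 0 of 17 ATP synthase genes. It found 1 of 35 assembly factors, 1 of 17 cycle genes and 2 of 45 ribosomal genes there, beside 7.5% of all probe sets. In dB/dB against wild type it found 3 of 35 assembly factors, 0 of 17 cycle genes and 1 of 45 ribosomal genes, beside 4.16% of all probe sets. These comparisons use the same arrays as those of the members.

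**Figure D4:**
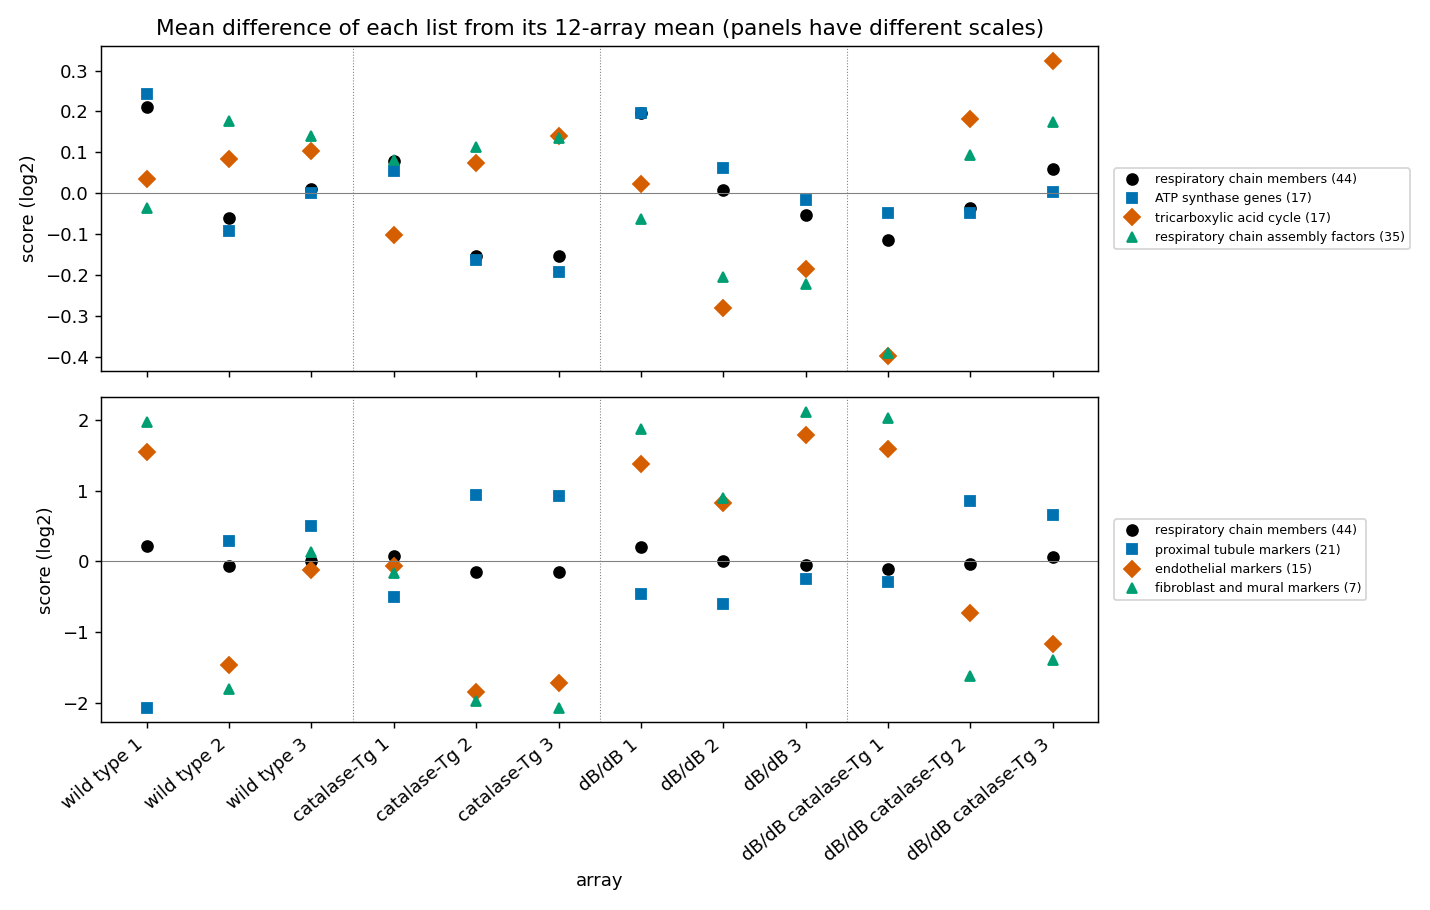
Score of each list on each array, the mean of its genes' log2 values minus their own 12-array means, with the number of genes in parentheses; the panels have different scales. The upper panel sets the members beside other mitochondrial lists, and the lower panel shows marker scores of cell types spreading from -2.07 to 2.12 around the members.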

How the data were processed

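RNA of 12 samples was measured on Affymetrix mouse arrays. The authors deposited log2 expression values per probe set, made with GCRMA, which corrects background and normalizes arrays to each other; both GCRMA and limma are named in the submitters' processing notes, without versions. The values ran from a floor of 2.30 to 15.66 and were used as deposited. Array controls (64 of 45101 probe sets) were left out.

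Probe sets above 4 on at least 3 arrays (18144) were fitted together over all 12 arrays in limma 3.58.1 (R 4.3.3), with a mean for each group, default empirical Bayes settings, 7 contrasts, Benjamini-Hochberg adjustment and a threshold of 0.05. SE and intervals are those of the moderated fit. The fit was checked on simulated data with independent noise and planted changes larger than the members' differences. That check does not cover changes of their size or deviations shared across an array. Members and 15 gene lists were chosen with earlier results of these data known. By rule, values by array are given for the member of smallest p in each complex and in the comparisons of dB/dB or catalase-Tg with wild type and of dB/dB catalase-Tg with dB/dB, for the members of largest and smallest spread, and differences for up to 2 genes of smallest p per list in dB/dB catalase-Tg against dB/dB. The others were named after their values were seen. Sample numbers did not pair all groups: same-numbered deviations correlated at 0.20 or more among the groups other than dB/dB, and at -0.18 to 0.22 with dB/dB. Alternatives covered the filter, spread estimate, array weights, normalization, probe set per gene, samples in the fit, arrays left out, replicate block, and covariates for other cells and RNA integrity.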

Additional observations from a re-analysis of the deposited data

How the results depend on the processing

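Over 26 alternative fits, the number of members called stayed at 0 in every comparison except under 2 settings. With array weights, limma called 2 members in dB/dB catalase-Tg against dB/dB (Ndufs1, 0.48, and Sdhc, 0.66; 38.5% of all probe sets called) and 2 in the average transgene effect (Sdhc, 0.47, and Cox5b, -0.31; 26.4%). Without the 3 low-weight arrays together, it called 1 in dB/dB against wild type (Ndufs1, -0.60; 26.9%) and 2 in dB/dB catalase-Tg against dB/dB (Ndufs1, 0.56, and Sdhc, 0.82; 27.8%); without these arrays the median of the average dB/dB effect was 0.13. Without wild type 2 and wild type 3 the medians were -0.19 in dB/dB against wild type, -0.29 in catalase-Tg against wild type and 0.20 in the interaction, and Cox5b in dB/dB against wild type turned to -0.023 (limma adjusted p = 1.00). The cause was not tested. Leaving out each array in turn gave 0 called members throughout and medians of -0.06 to 0.08 in dB/dB against wild type, -0.20 to -0.05 in catalase-Tg against wild type, -0.17 to -0.04 in dB/dB catalase-Tg against dB/dB and 0.01 to 0.14 in dB/dB catalase-Tg against catalase-Tg. Every group holds the same replicate numbers, so fitting them as a block could not alter the fitted differences. The median in catalase-Tg against wild type thus stayed at -0.14. Only the spread could change in that fit, which gave 0 called members in each comparison and changed no call. Without a filter the median of all probe sets in dB/dB against wild type was 0.00 in place of -0.11.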

Other observations

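Complex IV also has isoforms that are known from muscle, testis or lung, and 3 of 7 listed were above the filter in these tubules. Cox7a1, the heart and skeletal muscle isoform, read 7.97, 8.47 and 8.15 in wild type, 8.77, 8.09 and 7.92 in catalase-Tg, 7.75, 7.53 and 7.004 in dB/dB and 6.98, 7.48 and 8.13 in dB/dB catalase-Tg. The 3 dB/dB arrays lay below all wild-type arrays, by -0.77 (SE 0.33), and limma did not call the difference (adjusted p = 0.767). Cox6a2, the muscle partner of Cox6a1, read 3.98 to 7.24 over the 12 arrays and Cox6b2, known from testis, 4.39 to 6.96, both with wide overlap between groups. Cox4i2, Cox7b2, Cox8b and Cox8c read 2.30 to 2.45 on every array.

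Regulators of mitochondrial biogenesis were measured through 22 kept of 24 listed genes, with Nrf1 and Gabpb1 below the filter. In dB/dB against wild type 16 of 22 were lower (median -0.22), beside a median of -0.11 and 38.0% above 0 for all probe sets. In dB/dB catalase-Tg against dB/dB 11 were higher and 11 lower (median 0.02). Ppargc1a, a coactivator that drives respiratory chain genes, read 10.71, 9.41 and 9.63 in wild type, 10.05, 9.53 and 9.19 in catalase-Tg, 10.62, 10.54 and 10.16 in dB/dB and 10.56, 9.56 and 9.71 in dB/dB catalase-Tg. Array 1 was the highest in every group, and the dB/dB difference of 0.52 (SE 0.38) was not called by limma (adjusted p = 0.767). Pprc1, a related coactivator, was higher in dB/dB catalase-Tg than in dB/dB by 0.70 (SE 0.23) and Sirt3, the mitochondrial deacetylase, by 0.48 (SE 0.18), each with a limma adjusted p of 0.636. Tfam, which packages and transcribes mitochondrial DNA, differed by -0.68 (SE 0.38) in dB/dB against wild type, and limma did not call it. These groups overlapped, since dB/dB 1 read 8.36 and wild type 1 read 8.14.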
